A study of Mus musculus with 15 samples.

Results

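The translation initiation and elongation factors were taken as every protein-coding gene whose symbol begins with Eif1 to Eif6 or with Eef1 or Eef2, which gave 63 of the 35275 genes in the count table (22026 of them protein-coding). They were read in liver messenger RNA of C57BL/6 mice that were 3 months old when the regimens began and 6 months old at the end, after 3 months on every-other-day fasting (EOD, a fast of 24 hours), on 16-hour intermittent fasting (IF16) or on ad libitum feeding (AL). Each regimen had 5 libraries, all from the left lateral lobe, made from poly-A-selected RNA. Whether each library came from its own mouse, and when in the feeding cycle the livers were taken, is not stated in the labels, so a p-value covers the variation among these libraries, part of which may be technical.

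Translation begins when eIF1, eIF1A and eIF3 hold the small ribosomal subunit open, eIF2 brings the initiator tRNA, and the cap-binding complex eIF4F loads the messenger RNA; eIF5 and eIF5B then let the large subunit join. Elongation needs eEF1A, which delivers each aminoacyl-tRNA, and eEF2, which moves the ribosome along. The liver makes large amounts of secreted protein, and nutrient shortage is known to restrain translation through the eIF2α kinases and the 4E-binding proteins (4E-BPs), which act at the level of the factor proteins. The messengers of elongation factors, of some eIF3 subunits and of ribosomal proteins are known as terminal oligopyrimidine (TOP) messengers, which start with a cytosine and a run of pyrimidines and are translated under the control of mTORC1.

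The promoters of the members that the results turn on differ around their starts. Some hold a TATA match, some a pyrimidine run, some both and some neither. RefSeq promoter entries (assembly GRCm38.p6) were matched by symbol for 49 of the 63 members, and each line below gives 50 bases before and 30 bases after the annotated start, 5′ to 3′ on the gene's strand. Capitals mark a TATA match (TATAAAA or TATATAA, searched on both strands over the whole window) or a pyrimidine run (a C followed by at least 6 further C or T, on the gene's strand, from 10 bases before to 30 bases after the start). Eef1a1, Eef2 and Eif1 are shown as the 3 most abundant members, Eif3f and Eif2s3x for their pyrimidine runs, Eif4a2 and Eif4a1 as a pair of paralogs with different responses, and Eef2k as the member with the largest change. Eef2k has 3 entries, of which the one nearest its annotated start is shown; a motif is counted for a gene when any of its entries holds it.
Eef1a1, chr9:78481695-78481774, minus strand: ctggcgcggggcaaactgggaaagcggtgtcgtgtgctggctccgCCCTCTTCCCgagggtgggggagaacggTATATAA
Eef2, chr10:81176581-81176660, plus strand: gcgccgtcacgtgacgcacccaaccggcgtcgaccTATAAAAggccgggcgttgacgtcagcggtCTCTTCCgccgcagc
Eif1, chr11:100319899-100319978, plus strand: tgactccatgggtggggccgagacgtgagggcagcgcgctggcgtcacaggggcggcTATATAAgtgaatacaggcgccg
Eif3f, chr7:108934365-108934444, plus strand: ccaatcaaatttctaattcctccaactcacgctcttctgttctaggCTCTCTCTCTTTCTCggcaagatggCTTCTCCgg
Eif2s3x, chrX:94212622-94212701, minus strand: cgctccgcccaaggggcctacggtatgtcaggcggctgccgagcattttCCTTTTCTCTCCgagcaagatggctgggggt
Eif4a2, chr16:23107418-23107497, plus strand: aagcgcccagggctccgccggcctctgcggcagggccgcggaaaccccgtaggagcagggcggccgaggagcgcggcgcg
Eif4a1, chr11:69672394-69672473, minus strand: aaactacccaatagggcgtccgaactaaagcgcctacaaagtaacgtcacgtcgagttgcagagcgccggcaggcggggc
Eef2k, chr7:120842781-120842860, plus strand: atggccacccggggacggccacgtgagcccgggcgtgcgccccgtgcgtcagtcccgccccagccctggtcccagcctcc
Of the 49 members with an entry, 3 held a TATA match (6.12%), and these were Eef1a1, Eef2 and Eif1; the share over 15796 protein-coding genes of the table was 3.41%. The match lay before the annotated start in Eef2 and after it in Eef1a1 and Eif1. A pyrimidine run was found in 17 of the 49 members (34.7%), against 20% of all protein-coding genes and 54.1% of 61 cytosolic ribosomal protein genes. The motifs and windows were chosen after the sequences had been seen, and a match describes letters only.

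Levels are given as the deposited FPKM, the count scaled by gene length and by library total, so that genes can be set beside each other. Eef1a1, the main carrier of aminoacyl-tRNA, stood far above the rest with a mean of 2495 FPKM over the 15 libraries. Eif1, a scanning factor, followed with 421 FPKM and the translocase Eef2 with 359 FPKM. Eif5a, the hypusine-bearing factor that relieves stalled ribosomes, averaged 253 FPKM, the eIF3 subunit Eif3h 122 FPKM and the helicase Eif4a2 96.7 FPKM. The libraries of Eif1 (308 to 570 FPKM) and Eef2 (228 to 605) overlapped, as did those of Eif4a2 (62.9 to 154) and the next 3 in the order, Eif4a1, Eef1b2 and Eef1g, so these neighbours do not separate beyond their spread. Among the lowest were regulators: the kinases Eif2ak4 (GCN2), Eif2ak2 (PKR) and Eif2ak3 (PERK), the kinase Eef2k and the binding protein Eif4ebp3 were at 3.07 FPKM or less in every library.

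**Figure D1:**
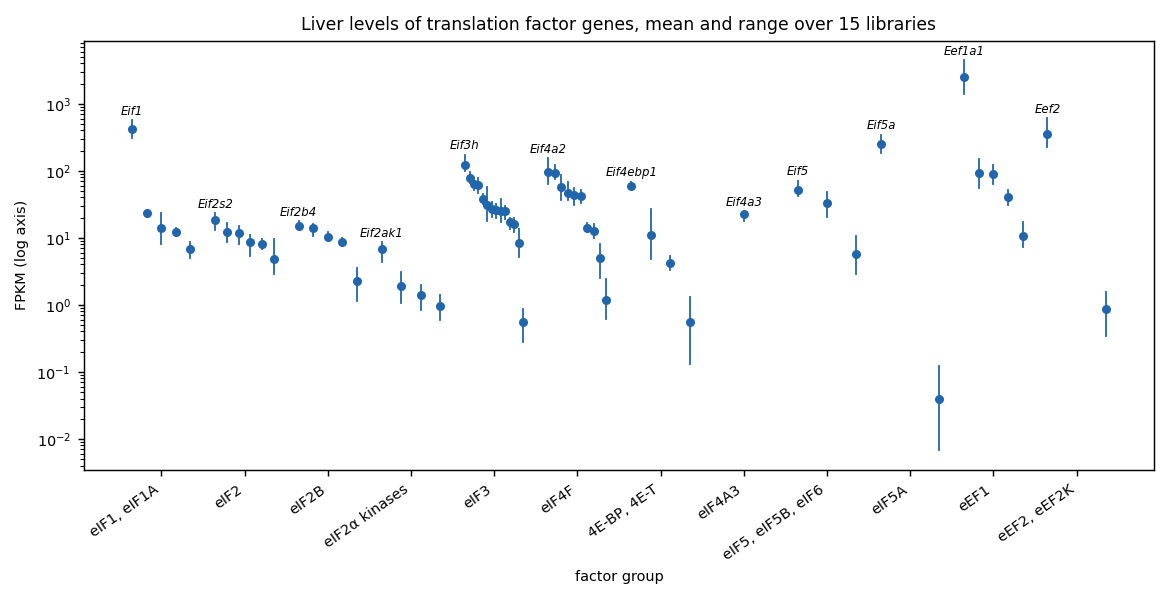
FPKM (log axis) of the 61 members with a value above 0 in every library, in 12 factor groups along the horizontal axis; points are means over all 15 libraries and lines run from the lowest to the highest library. Eef1a1, at 2495 FPKM, stands above Eif1 (421), Eef2 (359) and Eif5a (253), and most members of the kinase group and Eef2k lie in the lower part of the axis.

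Of the 63 members, 60 had enough counts to be tested. Eif4e1b, an oocyte form of the cap-binding protein, had no count in any library, and Eif5a2 averaged 0.0397 FPKM. Eef1a2, the eEF1A form of muscle and nerve, had 0 to 0.0381 FPKM in EOD libraries and 0 to 0.0862 FPKM in AL libraries. In IF16 libraries it had 0, 0, 0.0302, 0.0126 and 2.09 FPKM, the last from 160 counts in replicate 5.

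Library totals ran from 28129883 to 38147534 counts. All 8 hepatocyte markers were read in every group, with summed levels of 47631 to 60201 FPKM in EOD, 57530 to 70388 in IF16 and 48597 to 58378 in AL. The 8 markers of sinusoidal endothelium summed to 70.8 to 84.7 FPKM in EOD and 66 to 82 in IF16, above the 28.3 to 55.1 in AL, and none of the 8 was at 0; 7 of 8 passed the test as higher in EOD and 5 of 8 in IF16, each against AL, and their part in the results below was not tested. The 8 markers of stellate cells and fibroblasts summed to 76.4 to 111 FPKM in EOD, 53.6 to 81.7 in IF16 and 41.6 to 72.5 in AL (3 of 8 higher and 1 lower in EOD against AL), and their part was not tested either. Mitochondrially encoded transcripts took 5.34 to 10.1% of counts in EOD, 8.98 to 11.5% in IF16 and 10.01 to 15.1% in AL, and the highest of EOD (replicate 5) and of AL (replicate 2) were also the libraries with the least translation factor RNA in their groups. AL replicates 4 and 5 held high acute phase transcripts, summed to 19862 and 35278 FPKM against 3956 to 4253 in the other AL libraries. The same 2 libraries had 60.6 and 54.8 FPKM over 6 neutrophil markers, against 2.93 to 3.64 in the other AL libraries. Over 4 adipocyte markers they had 0.902 and 1.03 FPKM, against 8.36 to 11.1 in the other AL libraries. These markers summed to 0.372 to 1.31 FPKM in EOD and 0.279 to 1.37 in IF16, so here the other AL libraries stand apart. Without AL replicates 4 and 5, 22 members rose and 7 fell in EOD against AL. The shares of all tested genes in that fit are not given here. In bulk liver, fewer cells of a type and less RNA per cell cannot be told apart.

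The summed level of the 63 members was highest under every-other-day fasting. The sums were 7255, 6523, 7630, 6290 and 5237 FPKM in EOD libraries, 4842, 4842, 4432, 4259 and 4421 in IF16 libraries, and 4240, 3459, 4159, 4403 and 4211 in AL libraries. Every EOD library lay above every IF16 and AL library, and EOD replicate 5 was the closest to them. Much of this was Eef1a1, which made up 54.0 ± 3.56% of the sum in EOD, 46.6 ± 1.22% in IF16 and 43.4 ± 1.65% in AL (SD, n = 5 each).

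Gene by gene, 33 of the 60 tested members passed the threshold in EOD against AL (edgeR quasi-likelihood test, Benjamini-Hochberg adjusted p under 0.05 over 13837 genes), where 35.2% of all tested genes did. Of the members 23 rose (38.3%, against 17.6% of all tested genes) and 10 fell (16.7%, against 17.6%), so the lower share is close to that of all genes. The median log2 fold change of the members was 0.13, that of all genes -0.01. In 15 members all EOD libraries lay above all AL libraries and in 5 they lay below, where 9.6% and 9.19% of all genes did so. The elongation factors, the scanning factors and parts of eIF3 were among the higher genes, while the exchange factor eIF2B and the eIF2α kinases had lower members and no higher ones. No member passed in IF16 against AL, where 3.5% of all genes did (1.4% higher and 2.1% lower).

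**Figure D2:**
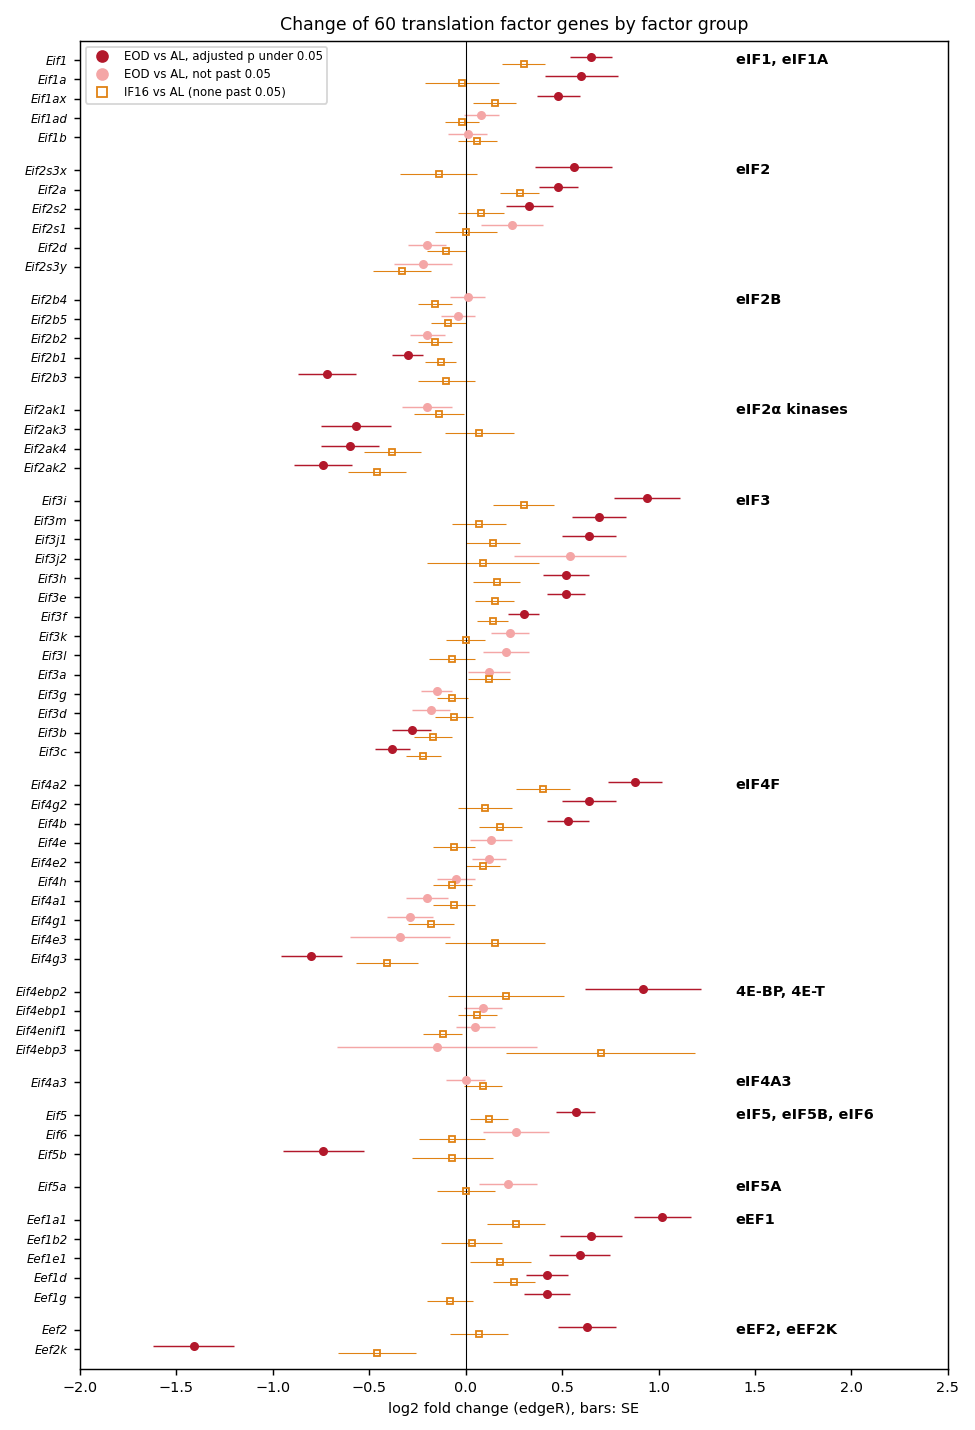
Log2 fold change with its standard error for the 60 tested members in their factor groups, EOD against AL as filled circles (dark where the edgeR adjusted p was under 0.05) and IF16 against AL as open squares (none under 0.05). Eef1a1 (1.02) and Eif3i (0.94) lie farthest to the right and Eef2k (-1.41) farthest to the left.

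All 5 tested members of the eEF1 group passed as higher in EOD against AL, where 17.6% of all tested genes did. Most of the group serve the delivery of aminoacyl-tRNA. Eef1a1 had 3915, 3565, 4456, 3430 and 2538 FPKM in EOD libraries, 2235, 2328, 2108, 1952 and 1997 in IF16 libraries, and 1861, 1408, 1802, 1935 and 1901 in AL libraries. No EOD library overlapped either other group, and the lowest IF16 library was just above the highest AL library. The log2 fold change was 1.02 ± 0.15 against AL (SE, adjusted p = 7.47e-05, edgeR) and 0.76 ± 0.15 against IF16 (adjusted p = 0.00239). It was 0.26 ± 0.15 in IF16 against AL (adjusted p = 0.366), which did not pass.

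The exchange factor subunits that recharge eEF1A followed with smaller changes. Eef1b2 averaged 120 ± 22.3 FPKM in EOD, 78.5 ± 10.4 in IF16 and 76.9 ± 13.4 in AL (SD, n = 5 each), a log2 fold change of 0.65 against AL and 0.62 against IF16, with 1 EOD library (replicate 5, 89.1 FPKM) inside the range of both. Eef1g, the scaffold of the exchange complex, averaged 108 ± 15.1 FPKM in EOD, 76.5 ± 7.61 in IF16 and 81.1 ± 10.4 in AL, and passed against both (log2 fold changes 0.42 and 0.50). Eef1d, a further exchange subunit, lay between 41.1 and 51.3 FPKM in EOD and between 30.6 and 37.3 in AL without overlap (log2 fold change 0.42, adjusted p = 0.00597, edgeR), while IF16 libraries held 35.2 to 45.7 FPKM. Eef1e1, which despite its name belongs to the multi-tRNA synthetase complex, lay between 9.6 and 17 FPKM in EOD and between 7.2 and 9.56 in AL (0.59, adjusted p = 0.00853). Eef1d and Eef1e1 did not pass in EOD against IF16.

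The translocase and its inhibitory kinase moved in opposite directions. Eef2 had 605, 430, 480, 343 and 456 FPKM in EOD libraries, 384, 329, 246, 292 and 317 in IF16 libraries, and 323, 228, 288, 354 and 305 in AL libraries. EOD replicate 4 fell within the ranges of the other regimens and the other EOD libraries lay above them. Eef2 differed by a log2 fold change of 0.63 ± 0.15 against AL and 0.57 ± 0.15 against IF16 (SE, adjusted p = 0.00304 and 0.0141, edgeR). Eef2k, which phosphorylates eEF2 and so slows elongation, had 0.587, 0.449, 0.415, 0.338 and 0.508 FPKM in EOD libraries, 1.57, 0.886, 0.658, 0.574 and 0.822 in IF16 libraries, and 1.47, 1.27, 1.13, 1.16 and 1.14 in AL libraries. All EOD libraries lay below all AL libraries, and the IF16 libraries spread over the whole span between, with replicate 1 above every AL library.

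The log2 fold change of Eef2k was -1.41 ± 0.21 in EOD against AL (SE, adjusted p = 8.16e-05, edgeR), the largest of any member, and -0.96 ± 0.21 in EOD against IF16 (adjusted p = 0.00516). The call against IF16 was lost in limma on log2(FPKM + 1) with no filter (-0.36, adjusted p = 0.0605). In IF16 against AL it was -0.46 ± 0.20 (adjusted p = 0.229); without IF16 replicate 1 it was -0.71 (adjusted p = 0.0178), so that 1 library decides this call. The log2 ratio of Eef2k to Eef2 within a library averaged -9.98 ± 0.13 in EOD, -8.52 ± 0.38 in IF16 and -7.92 ± 0.29 in AL (SD, n = 5 each). The EOD ratios lay below all others, at a difference of -2.06 to AL and -1.46 to IF16 (adjusted p = 0.019 each, exact two-sided permutation test, adjusted over 12 ratio tests). The difference of IF16 to AL was -0.60 (adjusted p = 0.0476, exact permutation test), a call lost in 13 of the 15 tests that left out 1 library (adjusted p = 0.0544 to 0.0952). Leaving out an EOD library moved that call only through the adjustment over the 12 ratio tests. The lowest p the exact permutation test can reach with 5 libraries a group is 0.00794 before adjustment. It is higher when a library of the compared groups is left out. A gene on the other strand, Gm15774, overlaps Eef2k, and the strand setting of the counting was not given in the sources used here.

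**Figure D3:**
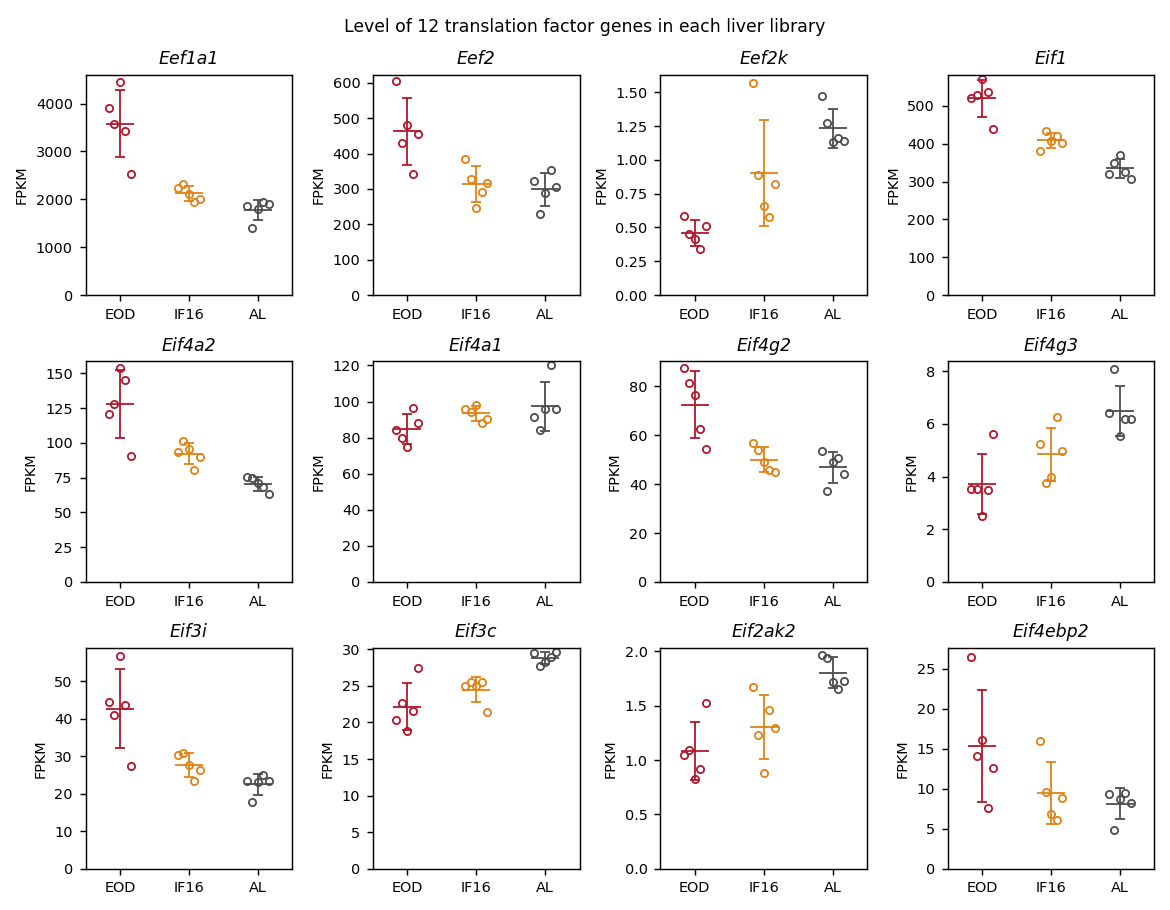
FPKM of 12 members in each library, for EOD, IF16 and AL from left to right in every panel, with the group mean and SD (n = 5 each) as bars and axes from 0. Eef1a1, Eif1, Eif4a2, Eif3i and Eif4g2 lie higher in EOD than in AL without overlap, Eef2k, Eif3c and Eif2ak2 lie lower without overlap, and Eif4a1 shows overlapping groups.

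Among the scanning factors, Eif1, which guards the choice of the start codon, lay highest in EOD, lower in IF16 and lowest in AL. It had 522, 530, 570, 538 and 440 FPKM in EOD libraries, 381, 433, 408, 421 and 403 in IF16 libraries, and 319, 350, 371, 326 and 308 in AL libraries. The 3 groups did not overlap at all. The log2 fold change was 0.65 ± 0.11 in EOD against AL (SE, adjusted p = 0.00022, edgeR) and 0.35 ± 0.11 in EOD against IF16 (adjusted p = 0.0319); in IF16 against AL it was 0.30 ± 0.11 and did not pass (adjusted p = 0.132).

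Eif1a and Eif1ax, near-identical genes for eIF1A whose reads may be split between them, also passed as higher. Eif1a averaged 18.2 ± 3.1 FPKM in EOD, 11.8 ± 1.17 in IF16 and 12 ± 4.09 in AL (SD, n = 5 each), and Eif1ax 7.98 ± 1.01 in EOD, 6.38 ± 0.277 in IF16 and 5.78 ± 0.598 in AL. Their log2 fold changes were 0.60 and 0.48 against AL and 0.62 and 0.33 against IF16, the last at an adjusted p of 0.0499 in edgeR. The Eif1a call against AL was lost without AL replicate 2 or 3 or EOD replicate 1 (adjusted p = 0.0528 to 0.0625). Eif1b, a near copy of Eif1, held 23.3 ± 0.996 FPKM in EOD, 24.1 ± 1.19 in IF16 and 23.2 ± 2.79 in AL (SD, n = 5 each), and neither it nor Eif1ad, a gene with an eIF1A domain, passed in any comparison.

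In the eIF2 group, 3 of 6 members rose in EOD against AL and none fell. Of all tested genes, 17.6% passed in each direction. Eif2s2, the β subunit, averaged 21 ± 2.34 FPKM in EOD, 17.7 ± 1.45 in IF16 and 16.8 ± 2.24 in AL, and Eif2s3x, the X-linked γ subunit, 6.31 ± 2.19 in EOD, 3.9 ± 0.515 in IF16 and 4.29 ± 0.847 in AL (SD, n = 5 each). Both groups of EOD values overlapped those of AL, at log2 fold changes of 0.33 and 0.56 (adjusted p = 0.035 and 0.0329, edgeR). The call of Eif2s2 was lost without AL replicate 2 or any of EOD replicates 1 to 4 (adjusted p = 0.0515 to 0.0894), and that of Eif2s3x without AL replicate 2 or 5 or EOD replicate 1, 2 or 3 (adjusted p = 0.0538 to 0.117). Eif2s3x was also higher in EOD than in IF16 (0.70, adjusted p = 0.0218). Eif2s1, the α subunit that the kinases phosphorylate, had 7.61 to 11 FPKM in EOD, 6.37 to 9.96 in IF16 and 5.27 to 9.96 in AL, with overlapping groups and a log2 fold change of 0.24 ± 0.16 against AL (adjusted p = 0.25).

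Eif2a, an alternative carrier of initiator tRNA that is not part of eIF2, had 13.2, 12.8, 13.9, 15.1 and 12.4 FPKM in EOD libraries, 11.7, 12, 12.1, 11.8 and 11.3 in IF16 libraries, and 9.92, 8.14, 9.79, 10.6 and 10.3 in AL libraries. The groups did not overlap, yet only the EOD difference to AL passed (log2 fold change 0.48 ± 0.10, SE, adjusted p = 0.00161, edgeR). The difference of EOD to IF16 was 0.20 and that of IF16 to AL 0.28 (adjusted p = 0.183 and 0.14). The Y-linked γ subunit Eif2s3y and the recycling factor Eif2d did not pass.

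The exchange factor eIF2B, which reloads eIF2 with GTP, had 2 of 5 subunits lower in EOD against AL and none higher. The share of all tested genes was 17.6% in each direction. Eif2b3, the γ subunit, had 1.82, 1.5, 1.13, 1.97 and 1.8 FPKM in EOD libraries, 3.38, 2.28, 2.45, 2.38 and 2.15 in IF16 libraries, and 3.57, 2.26, 2.49, 2.51 and 2.76 in AL libraries. All EOD libraries lay below all others, whereas IF16 and AL overlapped. Its log2 fold change was -0.72 ± 0.15 against AL (SE, adjusted p = 0.0018, edgeR) and -0.62 ± 0.15 against IF16 (adjusted p = 0.0118). Eif2b1, the α subunit, lay between 10.8 and 13.5 FPKM in EOD and between 14.2 and 16 in AL (-0.30 ± 0.08, adjusted p = 0.00833); without AL replicates 4 and 5 it no longer passed (adjusted p = 0.0514). Eif2b5, the catalytic subunit, averaged 8.74 ± 0.722 FPKM in EOD, 8.46 ± 0.537 in IF16 and 9.05 ± 0.827 in AL (SD, n = 5 each), with no call, and Eif2b2 and Eif2b4 did not pass either.

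Set against the substrate genes Eif2s1, Eif2s2 and Eif2s3x, summed eIF2B stood lower in EOD. The Y-linked Eif2s3y was left out of this ratio and averaged 12 FPKM in EOD, 11.1 in IF16 and 14 in AL. Its log2 fold change in EOD against AL was -0.22, opposite to Eif2s3x, and did not pass. The ratio with Eif2s3y included was not tested. Summed eIF2B alone held 48.2 ± 3.71 FPKM in EOD, 48.9 ± 1.12 in IF16 and 54.1 ± 2.57 in AL (SD, n = 5 each). The log2 ratio of the 5 eIF2B subunits to Eif2s1, Eif2s2 and Eif2s3x was 0.39 ± 0.20 in EOD, 0.72 ± 0.12 in IF16 and 0.90 ± 0.20 in AL (SD, n = 5 each). The EOD ratio differed by -0.51 from AL (adjusted p = 0.019, exact two-sided permutation test) and by -0.33 from IF16 (adjusted p = 0.0476). The call against IF16 was lost in 14 of the 15 tests that left out 1 library (adjusted p = 0.0544 to 0.0952, exact). Leaving out an AL library moved that call only through the adjustment over the 12 ratio tests. The IF16 difference to AL of -0.18 did not pass (adjusted p = 0.124).

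The eIF2α kinases, each answering to its own stress, had 3 of 4 genes lower in EOD against AL. Among all tested genes 17.6% were lower. Eif2ak2 (PKR, a sensor of double-stranded RNA) had 1.05, 1.09, 0.823, 0.92 and 1.52 FPKM in EOD libraries, 1.67, 1.23, 0.882, 1.46 and 1.29 in IF16 libraries, and 1.97, 1.94, 1.72, 1.65 and 1.73 in AL libraries. EOD and AL did not overlap, and all IF16 libraries but replicate 1 lay below AL. The log2 fold change was -0.74 ± 0.15 in EOD against AL (SE, adjusted p = 0.00135, edgeR) and -0.46 ± 0.15 in IF16 against AL, which did not pass in edgeR (adjusted p = 0.102) and passed in DESeq2 (adjusted p = 0.0481).

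Eif2ak4 (GCN2, the sensor of uncharged tRNA) had 0.694, 0.599, 0.721, 0.797 and 1.07 FPKM in EOD libraries, 1.1, 0.983, 0.813, 0.831 and 0.775 in IF16 libraries, and 1.33, 1.42, 1.14, 1.02 and 0.983 in AL libraries. EOD replicate 5 reached into the AL range and the other EOD libraries lay below it. Against AL the log2 fold change was -0.60 ± 0.15 (SE, adjusted p = 0.00523, edgeR). Eif2ak3 (PERK, the sensor of the endoplasmic reticulum) averaged 1.39 ± 0.33 FPKM in EOD, 2.18 ± 0.625 in IF16 and 2.07 ± 0.283 in AL (SD, n = 5 each), lower in EOD against AL (-0.57) and against IF16 (-0.63). The call against AL was lost without AL replicate 5 (adjusted p = 0.0644), EOD replicate 3 (0.0613) or EOD replicate 4 (0.0604). Without AL replicates 4 and 5 together that call was lost as well (-0.40, adjusted p = 0.153, edgeR). Eif2ak1 (HRI, the haem sensor), the most abundant of the 4 with 4.36 to 8.63 FPKM in EOD, 5.85 to 8.42 in IF16 and 6.8 to 7.82 in AL, did not pass (-0.20, adjusted p = 0.242) unless EOD replicate 1 was left out (-0.33, adjusted p = 0.0376).

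In the eIF3 complex, 6 of 14 genes rose and 2 fell in EOD against AL. Of all tested genes 17.6% passed in each direction, so the lower count is close to that share. Eif3i, a subunit of the module at the messenger RNA entry side, had 44.6, 41, 56.9, 43.6 and 27.5 FPKM in EOD libraries, 30.4, 30.8, 27.7, 23.3 and 26.3 in IF16 libraries, and 23.4, 17.7, 23.1, 24.9 and 23.4 in AL libraries. EOD replicate 5 overlapped IF16 but no EOD library overlapped AL, at a log2 fold change of 0.94 ± 0.17 against AL (SE, adjusted p = 0.000382, edgeR) and 0.64 ± 0.16 against IF16 (adjusted p = 0.0138).

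The other higher subunits were Eif3e, Eif3f, Eif3h and Eif3m of the octamer core, and Eif3j1, the gene of a loosely bound subunit. Eif3e averaged 72.8 ± 4.42 FPKM in EOD, 56.7 ± 3.32 in IF16 and 51.3 ± 2.86 in AL (SD, n = 5 each), with EOD apart from both (log2 fold changes 0.52 and 0.36). Eif3h had 140, 138, 174, 165 and 120 FPKM in EOD libraries, 105, 113, 125, 112 and 120 in IF16 libraries, and 103, 97.6, 110, 101 and 109 in AL libraries. Eif3h was above AL in every EOD library (0.52), while its call against IF16 was marginal (0.36, adjusted p = 0.0469, edgeR).

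Eif3m averaged 33.4 ± 5.9 FPKM in EOD, 21.8 ± 2.85 in IF16 and 20.9 ± 2.54 in AL (SD, n = 5 each), with log2 fold changes of 0.69 against AL and 0.62 against IF16 and EOD replicate 5 inside both ranges. Eif3j1 averaged 10.5 ± 1.95 FPKM in EOD, 7.48 ± 1.11 in IF16 and 6.78 ± 0.967 in AL (0.64 and 0.50); its reads could be split with the near copy Eif3j2. Eif3f changed least of these, between 37.7 and 45.3 FPKM in EOD and between 32.2 and 36.1 in AL (0.30, adjusted p = 0.00712, edgeR), and did not pass against IF16. Pyrimidine runs lie in the Eif3f window printed above. None was found in that of Eif3m in the stretch searched, from 10 bases before the start. A run that starts with C lies just upstream in Eif3m and ends at the edge of that stretch, so the search limit decides this. Both genes rose.

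The 2 lower subunits were Eif3b and Eif3c. Eif3c had 20.4, 22.6, 18.8, 21.6 and 27.4 FPKM in EOD libraries, 25, 25.5, 25, 25.5 and 21.5 in IF16 libraries, and 29.5, 27.7, 28.3, 28.9 and 29.6 in AL libraries. AL lay above both fasting groups without overlap, and the log2 fold change was -0.38 ± 0.09 in EOD against AL (SE, adjusted p = 0.00453, edgeR) and -0.22 ± 0.09 in IF16 against AL, which did not pass (adjusted p = 0.193). Eif3b averaged 23.4 ± 2.77 FPKM in EOD, 25.4 ± 1.26 in IF16 and 28.6 ± 3.33 in AL (SD, n = 5 each; -0.28, adjusted p = 0.0293); it did not pass without AL replicates 4 and 5 together (-0.14, adjusted p = 0.331), nor without AL replicate 1, 4 or 5 or EOD replicate 2, 3 or 4 alone (adjusted p = 0.0533 to 0.087). Of the 6 that did not pass, Eif3a, Eif3d, Eif3g, Eif3k, Eif3l and Eif3j2, the log2 fold changes ran from -0.18 to 0.54. Eif3k passed without EOD replicate 5 (0.30, adjusted p = 0.0262). Summed over its genes, eIF3 held 603 ± 32.3 FPKM in EOD, 512 ± 5.97 in IF16 and 498 ± 17.6 in AL (SD, n = 5 each).

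**Figure D4:**
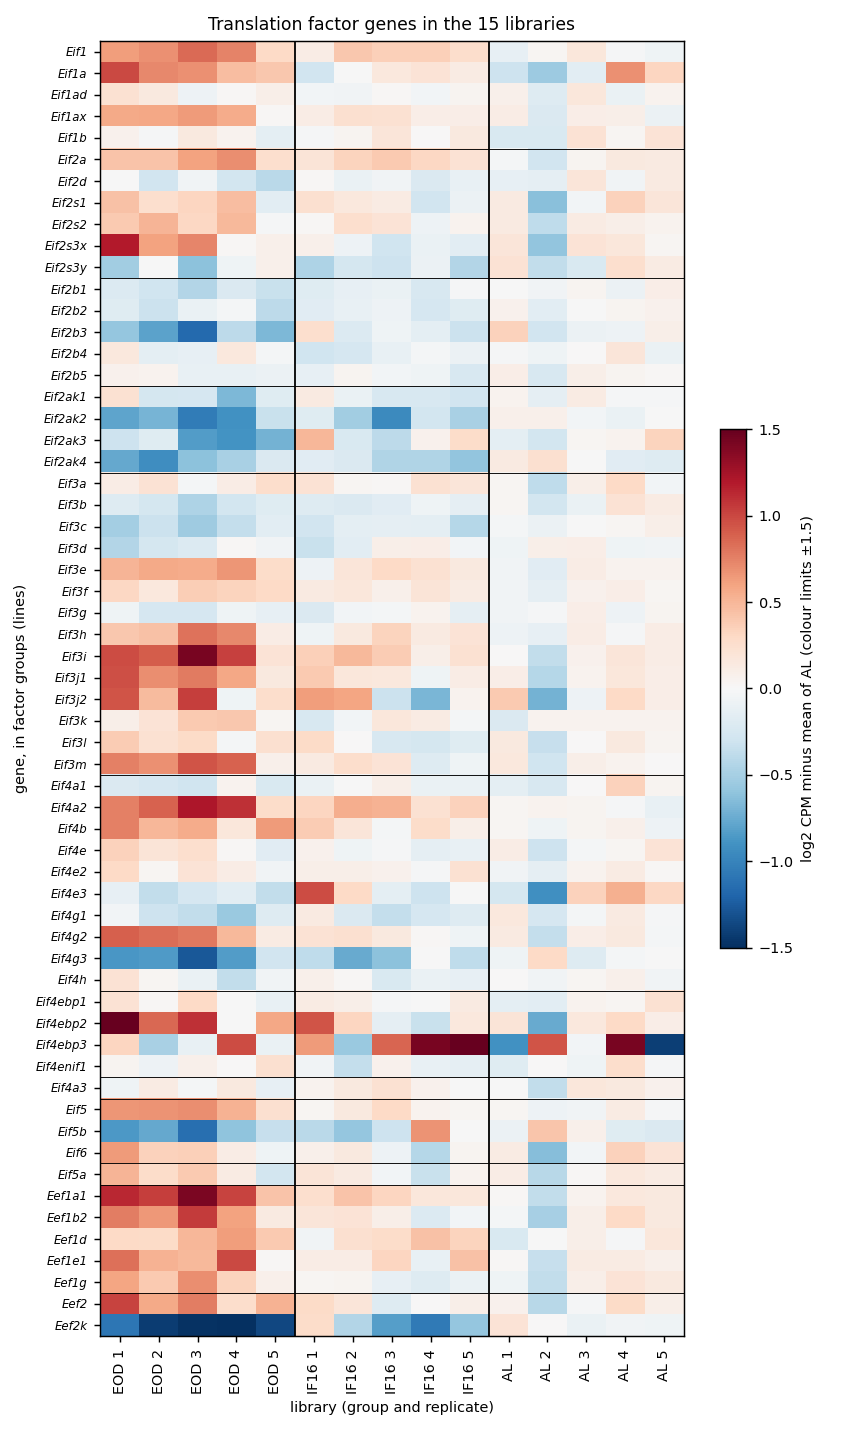
Log2 CPM of the 60 tested members minus the mean of AL, in the 15 libraries (EOD, IF16 and AL from left to right). CPM are counts relative to the TMM-scaled library sum. Colour limits are at ±1.5 and lines run between the factor groups. Eef1a1, Eif3i and Eif4a2 are high and Eef2k is low in the EOD libraries, EOD replicate 5 is paler than the rest of its group, and AL replicate 2 is the lowest AL library in 42 of the 60 members.

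In the cap-binding complex the paralogs parted. Eif4a2, a helicase that unwinds leaders, had 121, 128, 154, 145 and 90.6 FPKM in EOD libraries, 93.2, 101, 95.8, 80.8 and 89.7 in IF16 libraries, and 75.1, 74.5, 71.3, 68.2 and 62.9 in AL libraries. Every fasted library lay above every AL library, and EOD replicate 5 lay within IF16. The log2 fold change was 0.88 ± 0.14 in EOD against AL (SE, adjusted p = 0.000134, edgeR) and 0.48 ± 0.14 in EOD against IF16 (adjusted p = 0.022). In IF16 against AL it was 0.40 ± 0.14 and did not pass (adjusted p = 0.115), but passed when EOD replicate 5 was left out of the shared fit (adjusted p = 0.0265).

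Its sister Eif4a1 had 84.3, 79.9, 74.9, 96.5 and 88.3 FPKM in EOD libraries, 95.7, 94.3, 98.3, 88.3 and 90.5 in IF16 libraries, and 91.4, 84, 95.8, 120 and 96 in AL libraries. The groups overlapped and no comparison passed (-0.20 ± 0.11 in EOD against AL, SE, adjusted p = 0.173, edgeR). The log2 ratio of Eif4a2 to Eif4a1 was 0.57 ± 0.36 in EOD, -0.02 ± 0.08 in IF16 and -0.46 ± 0.26 in AL (SD, n = 5 each). In linear terms Eif4a2 stood at 1.49 times Eif4a1 in EOD, 0.983 times in IF16 and 0.726 times in AL, so the more abundant helicase transcript differed between EOD and AL. The ratio differed by 1.03 between EOD and AL, by 0.44 between IF16 and AL (adjusted p = 0.019 each, exact two-sided permutation test) and by 0.60 between EOD and IF16 (adjusted p = 0.0317). The last call was lost in 8 of the 15 tests that left out 1 library (adjusted p = 0.0544 to 0.0635, exact). Eif4a2 overlaps Rfc4 on the other strand, and the 2 helicases are alike enough that reads could be misassigned.

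**Figure D5:**
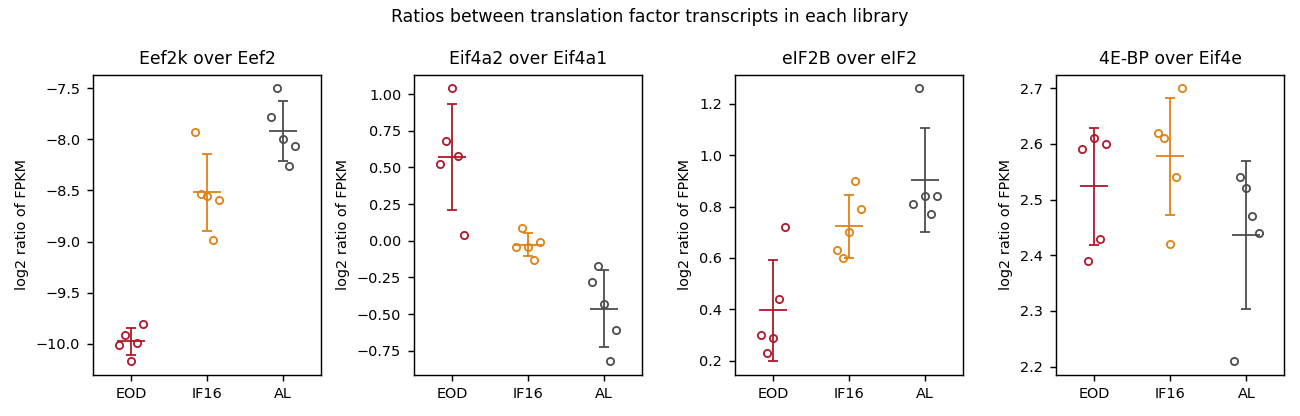
Log2 ratios of FPKM within each library for EOD, IF16 and AL from left to right, with the group mean and SD (n = 5 each). The ratio of Eef2k to Eef2 lies lowest in EOD (mean -9.98) and that of Eif4a2 to Eif4a1 highest in EOD (0.57), while that of the 4E-BPs to Eif4e overlaps in all 3 groups.

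The scaffolds of the cap complex parted too. Eif4g2 (DAP5), which lacks the site for eIF4E and serves cap-independent initiation, had 87.7, 81.4, 76.4, 62.7 and 54.2 FPKM in EOD libraries, 56.9, 53.9, 48.9, 45.9 and 44.8 in IF16 libraries, and 53.4, 37.2, 48.9, 50.7 and 44.1 in AL libraries. All EOD libraries lay above AL, with log2 fold changes of 0.64 ± 0.14 against AL (SE, adjusted p = 0.00188, edgeR) and 0.54 ± 0.14 against IF16 (adjusted p = 0.0137). Eif4g3, a canonical scaffold, had 3.54, 3.51, 2.51, 3.47 and 5.61 FPKM in EOD libraries, 5.22, 3.75, 3.99, 6.27 and 4.95 in IF16 libraries, and 6.4, 8.09, 5.53, 6.19 and 6.19 in AL libraries. EOD replicate 5 reached just into the AL range and the other EOD libraries lay well below it (-0.80 ± 0.16, adjusted p = 0.00123). Eif4g1, the main canonical scaffold, averaged 38.9 ± 6.51 FPKM in EOD, 42.3 ± 7.53 in IF16 and 47.8 ± 5.62 in AL (SD, n = 5 each; -0.29, adjusted p = 0.0609), and passed without AL replicate 2 (adjusted p = 0.031) or EOD replicate 1 (0.0331) among the libraries left out.

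Eif4b, which stimulates the helicase, lay between 42.9 and 67.6 FPKM in EOD, 37 and 54.5 in IF16, and 36.4 and 42 in AL, with log2 fold changes of 0.53 against AL and 0.35 against IF16 (adjusted p = 0.00117 and 0.0347, edgeR). The cap-binding protein itself, Eif4e, had 15.8, 13.8, 13.8, 11.9 and 11.6 FPKM in EOD libraries, 13.6, 11.6, 11.5, 11 and 11.4 in IF16 libraries, and 13.8, 10.1, 11.8, 12.3 and 13.6 in AL libraries. Its groups overlapped and no comparison passed (0.13 ± 0.11 in EOD against AL, SE, adjusted p = 0.392). Eif4e2, Eif4e3 and Eif4h did not pass in any comparison.

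Of the 4E-BPs, which sequester eIF4E when mTORC1 is low, the most abundant did not pass. Eif4ebp1 averaged 61.4 ± 6.13 FPKM in EOD, 60.4 ± 4.97 in IF16 and 58.1 ± 4.91 in AL (SD, n = 5 each), a log2 fold change of 0.09 ± 0.10 in EOD against AL. Eif4ebp2 had 26.5, 14.1, 16.1, 7.58 and 12.6 FPKM in EOD libraries, 16, 9.65, 6.83, 6.14 and 8.81 in IF16 libraries, and 9.41, 4.8, 8.68, 9.54 and 8.2 in AL libraries. Its EOD libraries were widely spread and replicate 4 lay within AL. The log2 fold change of 0.92 ± 0.30 passed (SE, adjusted p = 0.0282, edgeR) but not without EOD replicate 1 (0.65, adjusted p = 0.0848), EOD replicate 3 (0.0581) or AL replicate 2 (0.78, 0.0665).

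Eif4ebp3 had 0.462, 0.255, 0.318, 0.688 and 0.361 FPKM in EOD libraries, 0.6, 0.243, 0.634, 0.951 and 1.32 in IF16 libraries, and 0.201, 0.717, 0.347, 0.962 and 0.132 in AL libraries. Its libraries overlapped in all groups, the SE was 0.49 to 0.52, and it shares its strand and position with Ankhd1, so its counts are uncertain. The log2 ratio of the summed 4E-BPs to Eif4e was 2.52 ± 0.11 in EOD, 2.58 ± 0.10 in IF16 and 2.44 ± 0.13 in AL (SD, n = 5 each), and none of its 3 differences passed (adjusted p = 0.124 to 0.437, exact two-sided permutation test). Eif4enif1, the 4E transporter, did not pass, nor did Eif4a3, the helicase of the exon junction complex, at 22.5 ± 1.43 FPKM in EOD, 24 ± 1.09 in IF16 and 22.6 ± 2.79 in AL.

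The late steps of initiation split. Eif5, which makes eIF2 hydrolyse its GTP at the start codon, had 71, 69.2, 68, 61.2 and 55.7 FPKM in EOD libraries, 48, 48.1, 52.1, 44.8 and 45.4 in IF16 libraries, and 47, 43, 41.9, 47.4 and 42.4 in AL libraries. All EOD libraries lay above all others (0.57 ± 0.10 against AL, SE, adjusted p = 0.000391; 0.45 ± 0.10 against IF16, adjusted p = 0.00588, edgeR). Eif5b, which joins the subunits, had 3.77, 3.89, 2.92, 4.26 and 5.65 FPKM in EOD libraries, 5.39, 4.41, 5.19, 10.5 and 6.73 in IF16 libraries, and 6.63, 9.19, 6.97, 5.82 and 5.62 in AL libraries. EOD replicate 5 reached the AL range and the other EOD libraries lay below all AL libraries (-0.74 ± 0.21 against AL, SE, adjusted p = 0.0127, edgeR). The call against IF16 (-0.67, adjusted p = 0.0399) was lost without IF16 replicate 4 (-0.40, adjusted p = 0.122).

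Eif6, which keeps large subunits apart, did not pass (0.26 in EOD against AL). Eif5a had 346, 284, 297, 251 and 211 FPKM in EOD libraries, 289, 258, 221, 186 and 248 in IF16 libraries, and 269, 184, 239, 263 and 252 in AL libraries. Its groups overlapped and no comparison passed (0.22 ± 0.15 in EOD against AL, SE, adjusted p = 0.267, edgeR), which leaves it as the only one of the 4 most abundant members without a call in EOD against AL. Without EOD replicate 5 it passed (0.35, adjusted p = 0.0444).

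Between the fasting regimens, 21 members passed, 17 higher and 4 lower in EOD against IF16, where 16.1% of all tested genes passed (7.96% higher and 8.15% lower). EOD lay above IF16 without overlap in 8 members and below it in 1, where 5.37% and 5.67% of all genes did so, and the median log2 fold change of the members was 0.17. All 21 were among the 33 that passed against AL, in the same direction; the comparisons share the EOD libraries. The 6 higher against AL but not against IF16 were Eef1d, Eef1e1, Eif2a, Eif2s2, Eif3f and Eif4ebp2, and the 6 lower were Eif2ak2, Eif2ak4, Eif2b1, Eif3b, Eif3c and Eif4g3. When each library was left out in turn, 11 of the 21 calls against IF16 and 27 of the 33 against AL held throughout.

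The other 10 calls against IF16 were each lost without at least 1 single library. Eif1ax was lost without any of 12 of the 15 libraries (adjusted p = 0.0507 to 0.109, edgeR), Eif3h without 11 of them (0.0507 to 0.125). Eif5b was lost without AL replicate 1, 3 or 5, IF16 replicate 4 or 5, or EOD replicates 1 to 4 (0.0502 to 0.122). Eif1 was lost without IF16 replicate 1 or 5 or EOD replicates 1 to 4 (0.0562 to 0.0789). Eif1a was lost without IF16 replicate 1, 2, 3 or 5 or EOD replicate 1, 2 or 3 (0.0506 to 0.0977). Eif4b was lost without IF16 replicate 2, 3 or 5 or EOD replicate 1, 2 or 3 (0.0572 to 0.0995). Eif2ak3 was lost without IF16 replicate 1 or 5 or EOD replicate 3 or 4 (0.0634 to 0.0784). Eif3j1 was lost without IF16 replicate 4 or 5 or EOD replicate 1 (0.0501 to 0.0715). Eif4a2 was lost without IF16 replicate 5 (0.0543) or EOD replicate 3 (0.061). Eif2s3x was lost without IF16 replicate 5 (0.0525) or EOD replicate 1 (0.0706). Without EOD replicate 5, Eef1e1 (0.56), Eif2a (0.28), Eif2s2 (0.36) and Eif3k (0.30) passed as higher in EOD than in IF16 and Eif4g3 (-0.52) as lower. Eif4ebp2 passed as higher without IF16 replicate 1 (0.97) or EOD replicate 4 (0.89), and Eif3l without IF16 replicate 1 (0.41).

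In IF16 against AL no member passed in edgeR at an adjusted p under 0.05. An unadjusted p under 0.05 was reached by 10 of 60 members and by 2579 of all 13837 tested genes. These shares are close to each other. DESeq2 called 1 member, Eif2ak2. The median log2 fold change of the members was 0.00, and they ran from -0.46 to 0.70. Without overlap of FPKM, 4 members lay higher in IF16 than in AL (Eef1a1, Eif1, Eif2a and Eif4a2) and 1 lower (Eif3c), where 2.77% and 2.73% of all genes did so.

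Among the 49 members with a promoter entry, a pyrimidine run was found in 6 of 16 that rose in EOD against AL (37.5%), in 2 of 9 that fell (22.2%, Eef2k and Eif2ak4, the run of Eef2k being in an entry that is not shown) and in 8 of 22 that did not pass (36.4%); the other 2 members with an entry were not tested. The TATA match was found in 3 of the 16 that rose and in none of the others.

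Genes that work beside these factors were counted by list. Of 80 cytosolic ribosomal protein genes, 73 rose (91.2%, against 17.6% of all tested genes) and none fell in EOD against AL, with a median log2 fold change of 0.60, and 26 rose against IF16 (32.5%, against 7.96%). Rpl9 of the large subunit had 183 ± 57.4 FPKM in EOD and 62 ± 7.53 in AL (1.59), Rps27 of the small subunit 2307 ± 394 in EOD and 1107 ± 100 in AL (1.07), and Rps9 404 ± 79.5 in EOD and 194 ± 11 in AL (1.08; SD, n = 5 each). In IF16 against AL 3 passed as higher (3.75%, against 1.4% of all tested genes), Rps28 (0.57), Rps29 (0.53) and Rps27 (0.53). The median log2 fold change of the 80 genes was 0.29 there. In 26 of the 80 all IF16 libraries lay above all AL libraries and in 0 below, where 2.77% and 2.73% of all genes did so. Of the cytosolic aminoacyl-tRNA synthetases and their partners, 11 of 22 fell (50%) and 1 rose (4.55%) in EOD against AL, where 17.6% of all tested genes passed in each direction, and the median was -0.25, against -0.01 over all genes. Aars, which charges alanine tRNA, had 23.8 ± 3.38 FPKM in EOD, 28.1 ± 1.67 in IF16 and 40.8 ± 2.58 in AL, and passed as lower in EOD (-0.77, adjusted p = 1e-05) and in IF16 (-0.53, adjusted p = 0.00331, edgeR), each against AL. Cars, for cysteine, and Eprs, for glutamate and proline, fell by 0.92 and 0.61 on the log2 scale in EOD against AL.

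Of 19 initiation helpers outside the name rule, 4 rose and 3 fell in EOD against AL (36.8%, close to the 35.2% of all tested genes). Paip1, which bridges poly-A-binding protein to eIF4A, rose (0.67), as did its inhibitor counterpart Paip2 (0.56), and Mknk2, a kinase of eIF4E, fell (-0.81). Against IF16, Paip2b (1.0), Paip2 (0.42) and Pdcd4 (0.73), an inhibitor of eIF4A, rose in EOD. Of 25 tested mTORC1 genes, 5 rose and 4 fell in EOD against AL (36%, close to the 35.2% of all tested genes), among them Mtor, the kinase (-0.58), its partner Rptor (-0.32) and the inhibitor Sesn3 (0.95). Sesn2, a leucine-sensing inhibitor of mTORC1 that is also a stress-response target, was higher in IF16 than in AL (0.93, adjusted p = 0.00164, edgeR) and lower in EOD than in IF16 (-0.58, adjusted p = 0.0116). Rptor was also lower in IF16 than in AL (-0.35), and Lamtor1 (0.46), of the lysosomal anchor of mTORC1, and Sesn3 (0.69) rose in EOD against IF16.

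Of 20 tested genes of the integrated stress response, the programme downstream of eIF2α phosphorylation, 3 rose and 1 fell in EOD against AL (20%), where 35.2% of all genes passed. Fgf21, a fasting hormone, had 11.2 ± 3.35 FPKM in EOD and 2.19 ± 2.12 in AL (2.38; SD, n = 5 each), Cebpg, a transcription factor, rose by 0.34, and Shmt2, of mitochondrial serine metabolism, fell by 0.55 on the log2 scale. Against IF16 Atf5, another transcription factor of this response, was higher in EOD (1.22), and Slc3a2, an amino acid transporter chain, was higher in IF16 than in AL (0.33). Of 9 tested genes of termination and ribosome rescue, 2 rose and 2 fell in EOD against AL (44.4%, against 35.2% of all tested genes). The release factors Etf1 (0.46) and Gspt1 (0.58) rose, and Gtpbp1 (-0.38) was among the 2 that fell. Against IF16 Etf1 rose (0.42) and Nemf, of ribosome quality control, fell (-0.34), which is 22.2%, against 16.1% of all tested genes. Of 9 enzymes that make hypusine and diphthamide, the modified residues of eIF5A and eEF2, Dph1 alone passed in EOD against AL (0.44, adjusted p = 0.0348, edgeR). That was 11.1% of these enzymes, against 35.2% of all tested genes.

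EOD replicate 5 was the lowest EOD library in 29 of 60 members and AL replicate 2 the lowest AL library in 42 of 60, where they were lowest in 29.5% and 28.5% of all tested genes. With both left out, an alternative chosen after the data had been seen, 23 members rose and 11 fell in EOD against AL, and 24 rose and 5 fell in EOD against IF16. With mitochondrially encoded genes left out before scaling, the counts stood at 23 and 10 against AL and at 17 and 4 against IF16. For these alternatives the shares of all tested genes are not given here.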

How the data were processed

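The files hold 15 libraries with, per gene, the deposited raw counts and the deposited FPKM, which equal the count scaled by gene length and library total in 100% of cells. The submitters' processing notes name STAR 2.5, HTSeq 0.6.1, DESeq2 and mm10 without a role; the strand setting was not given in the sources used here. Members and gene lists were chosen with earlier results of these data known, and named genes are all members past the threshold, the 6 most abundant, the 4E-BPs, the eIF2α kinases, Eif4e, Eif2s1, Eif2b5, Eef2k, Eif5a, untested members, and up to 3 genes of each outside list with the smallest p.

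Counts were fitted in R 4.3.3 with edgeR 4.0.16 (filterByExpr with a minimum count of 10, TMM, 13837 genes, 15 libraries in 1 fit with a mean per group, quasi-likelihood F test, Benjamini-Hochberg over all genes, threshold 0.05). SE is the log2 fold change over the root of F. Folds come from TMM-scaled counts, so they can differ slightly from FPKM ratios. Ratios within a library were compared by exact permutation in scipy 1.17.1. The fit was tested on simulated data. Alternatives used DESeq2 1.42.0, limma 3.58.1 on log2(FPKM + 1) or log2(FPKM + 0.1), other scalings and filters, 2 groups alone, the replicate block and left-out libraries. Totals of 28129883 to 38147534 counts set the precision; 3 counts are 0.0786 to 0.107 CPM. No 2 libraries of a group agreed within sampling noise (chi-square per degree of freedom 24.9 to 219). Near copies (Eef1a1, Eif1 and Eif1b, Eif1a and Eif1ax, Eif4a1 and Eif4a2) and the 17 members that overlap a gene on the other strand are uncertain where reads could be shared. Rows with matching names that are not protein-coding were left out.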

Additional observations from a re-analysis of the deposited data

Results flagged for a closer look

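In 201 groups of 5 libraries (60 tested members on TMM-scaled log2 CPM, 2 untested members and the member sum on FPKM, and 4 ratios), 16 held 1 library whose gap to the nearest other exceeded 0.71 of the group's range. The limit is set so that chance alone flags 5% of such groups. Most were AL replicate 2, which lay below the other AL libraries in Eef1e1 (7.2 FPKM, others 9.08 to 9.56), Eif2b5 (7.82, others 8.81 to 10.1), Eif4ebp2 (4.8, others 8.2 to 9.54), Eif3j1 (5.12, others 6.87 to 7.51) and Eif3l (20.6, others 25.3 to 29.6). The same library lay lowest in Eif2s3x (2.88 FPKM, others 4.18 to 4.98), Eef1a1 (1408, others 1802 to 1935), Eif2s2 (13.1, others 16.7 to 19), Eif5a (184, others 239 to 269) and the summed FPKM of all members (3459, others 4159 to 4403). Its log2 ratio of eIF2B to eIF2 was the highest of AL at 1.26, where the others held 0.77 to 0.84. It also had the highest mitochondrial share of all libraries (15.1%), and the part of that share in these values was not tested.

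Outside AL replicate 2, Eif3k was lowest in AL replicate 1 (66.3 FPKM, others 74.3 to 78.6), Eif4a1 was highest in EOD replicate 4 (96.5, others 74.9 to 88.3), and Eif1ax was lowest in EOD replicate 5 (6.2, others 8.17 to 8.64). Eef1a2 stood at 2.09 FPKM in IF16 replicate 5, where the other IF16 libraries held 0 to 0.0302, and at 0.0862 FPKM in AL replicate 1, where the others held 0 to 0.0171.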

How the results depend on the processing

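No gene or ratio difference that passed, as reported or in the alternative, changed direction under any alternative run. Differences that did not pass could change sign. With 1 library left out, Eif4ebp3 in EOD against AL (-0.15) ran from -0.41 to 0.30. In EOD against AL the counts of members stayed within 1.5 times of 23 higher and 10 lower under every alternative, and 26 of the 33 calls held in all of them. In EOD against IF16, 10 of 21 calls held in all; with each library left out in turn the count of higher members ran from 9 to 21 and of lower members from 2 to 5, and limma on log2(FPKM + 1) without a filter called 1 lower member. In IF16 against AL the count of higher members was 1 (Eif4a2) with only the 2 groups fitted and with AL replicate 2 and EOD replicate 5 left out together, and 0 to 1 with each library left out; the count of lower members was 1 (Eif2ak2) in DESeq2 and 0 to 1 with each library left out. The cause was not tested. Without AL replicates 4 and 5 the ratio differences were 0.27, 0.87 and 0.60 for Eif4a2 over Eif4a1 (IF16 vs AL, EOD vs AL, EOD vs IF16), -0.76, -2.22 and -1.46 for Eef2k over Eef2, and -0.57 (EOD vs AL) and -0.33 (EOD vs IF16) for eIF2B over eIF2. Their adjusted p was 0.0612 (0.107 for Eef2k over Eef2 in IF16 against AL, exact permutation test). The comparisons to AL then have 3 AL libraries, and the lowest p this test can reach is higher than with 5. Those lost calls therefore cannot be told apart from an effect of the smaller group. EOD against IF16 keeps its libraries and differences and moved only through the adjustment over all ratio tests. With 1 library left out, the difference ranged from -0.75 to -0.48 for Eef2k over Eef2 (IF16 vs AL), from 0.48 to 0.73 for Eif4a2 over Eif4a1 (EOD vs IF16) and from -0.41 to -0.29 for eIF2B over eIF2 (EOD vs IF16), and the calls were lost in 13, 8 and 14 of the 15 tests in that order. A library outside the 2 groups compared moved a call only through the adjustment over all ratio tests.

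The labels do not say that a replicate number pairs libraries, and same-numbered libraries deviated together weakly: correlations ran from -0.0797 to 0.184 (EOD and AL), from -0.000299 to 0.142 (EOD and IF16) and from -0.13 to 0.218 (IF16 and AL). With the replicate number as a block, 22 members were higher and 11 lower in EOD against AL, 16 and 3 in EOD against IF16, and 0 in IF16 against AL. As for the other alternatives, the shares of all tested genes under the block are not given here. The block called Eif4g1 as lower (-0.30, adjusted p = 0.0345) and lost Eif2s2 (adjusted p = 0.0567) in EOD against AL, and lost Eif1ax (0.0539) and Eif5b (0.0549) in EOD against IF16. The blocked ratio differences were unchanged (0.44, 1.03 and 0.60 for Eif4a2 over Eif4a1; -0.60, -2.06 and -1.46 for Eef2k over Eef2; -0.51 and -0.33 for eIF2B over eIF2), but sign flips of 5 pairs cannot go below a p of 0.0625 and so cannot pass (adjusted p = 0.0938, exact). Depth limits most the members whose mean was under 1 FPKM: Eif2ak4, Eef2k, Eif3j2, Eif4ebp3 and the untested Eef1a2, Eif5a2 and Eif4e1b.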
